A study of Mus musculus with 66 samples.

Results

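The genes described here are 47 markers of the cells that surround neurons in brain: 12 of astrocytes, 15 of the oligodendrocyte lineage, 10 of microglia and 10 of blood vessels. They were chosen by name from a list of cell type markers, with earlier results of these data known. A share of them set beside that of all genes is therefore a description and no test. Every region that the authors' 7 tables of differential histone H3.3, H3.1/2 and CATCH-IT signal assigned to one of them was taken. Of the 47 genes, 36 had at least 1 listed region and 17 had a region in an H3.3 table. Together they held 121 of the 57678 listed regions, 20 of them in H3.3 tables, and they are 36 of the 9806 genes named at any region.

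All mice were C57bl/6. In vivo, H3.3 was immunoprecipitated from adult hippocampal nuclei at about 7 weeks after birth, from mice under environmental enrichment (4 weeks in the protocol, which describes it for NeuN-positive nuclei) and from normally housed mice. NeuN-positive nuclei had 2 libraries per housing group and NeuN-negative nuclei 3, and the protocol speaks of biological duplicates in vivo. In culture, primary cortical neurons taken at E16.5 after 8 days in vitro were stimulated with KCl for 30 min, 2 hr or 5 hr or left unstimulated, with 3 values per group. H3.3 was measured at all 3 times, and H3.1/2 and newly made histones (CATCH-IT) at 5 hr.

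H3.3 is a form of histone H3 that cells can build into chromatin at any time of the cell cycle, and in non-dividing cells such as neurons it builds up with age. H3.1 and H3.2 are the forms made in step with DNA replication. CATCH-IT labels newly made proteins with a methionine analogue, tags them with biotin and recovers nucleosomes that hold new histones on streptavidin beads, so that its signal follows histone turnover. NeuN is a nuclear protein of neurons. Nuclei that lack it come mostly from glia and vessels: astrocytes, which take up glutamate and feed neurons, oligodendrocytes, which make myelin, microglia, the resident immune cells of brain, and endothelial cells and pericytes, which form the blood-brain barrier.

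The tables listed regions that had already been called as different, with an absolute log2 fold change of at least 1.59, so a gene without a region was not shown to be unchanged. They hold no expression values. The labelled cell types could therefore not be checked against expression of their markers, and how many non-neuronal cells the cultures held was not tested. A region is called gained when its mean was higher in enriched mice or after KCl and lost when it was lower. In every H3.3 table the library values of the 2 groups did not overlap in any listed region. That was so for all members, and it is a property of the lists. Each library's value is a normalised read count on the authors' scale of that table, and 1 read was worth between 0.542 and 2.64 in the NeuN-negative libraries, between 0.785 and 1.51 in the NeuN-positive ones and between 0.316 and 2.72 in CATCH-IT. The library titles carry a sequencing lane. In every table used below except H3.3 at 5 hr, enriched or KCl libraries and their controls came from different lanes, so lane and condition cannot be told apart.

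The sequences below are those of the regions that the NeuN-sorted results turn on, read from the mouse build mm9. They are the lost microglial regions of NeuN-negative nuclei (3 genes), an astrocyte and 2 oligodendrocyte regions of NeuN-positive nuclei, and the region nearest upstream of a vascular gene in culture. Capitals mark matches, on either strand, to the motifs searched: TGANTCA (AP-1), TGACGTCA (CRE), TTGGCA (NFI factors), ACAATG (SOX factors) and GAGGAAGT (ETS factors such as PU.1).
Rac2, chr15:78392001-78392200, plus strand: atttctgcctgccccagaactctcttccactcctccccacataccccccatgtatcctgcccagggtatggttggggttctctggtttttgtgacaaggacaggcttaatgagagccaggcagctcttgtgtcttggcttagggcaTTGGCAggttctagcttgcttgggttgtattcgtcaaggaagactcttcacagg
P2ry12, chr3:59057461-59057660, plus strand: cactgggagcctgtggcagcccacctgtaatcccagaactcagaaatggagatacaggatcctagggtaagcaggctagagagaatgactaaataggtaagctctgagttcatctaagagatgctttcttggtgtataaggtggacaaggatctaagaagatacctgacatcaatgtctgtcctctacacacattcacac
Ccr9, chr9:123675121-123675320, plus strand: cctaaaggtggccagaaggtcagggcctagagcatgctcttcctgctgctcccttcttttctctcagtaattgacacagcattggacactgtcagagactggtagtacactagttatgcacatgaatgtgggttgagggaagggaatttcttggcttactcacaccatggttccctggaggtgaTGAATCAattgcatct
Aldh1l1, chr6:90458781-90459040, plus strand: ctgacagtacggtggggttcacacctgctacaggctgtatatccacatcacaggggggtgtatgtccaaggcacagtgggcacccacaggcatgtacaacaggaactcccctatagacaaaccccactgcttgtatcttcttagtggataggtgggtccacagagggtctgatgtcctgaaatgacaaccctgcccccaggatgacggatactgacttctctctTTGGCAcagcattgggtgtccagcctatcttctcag
Myrf, chr19:10296841-10297140, plus strand: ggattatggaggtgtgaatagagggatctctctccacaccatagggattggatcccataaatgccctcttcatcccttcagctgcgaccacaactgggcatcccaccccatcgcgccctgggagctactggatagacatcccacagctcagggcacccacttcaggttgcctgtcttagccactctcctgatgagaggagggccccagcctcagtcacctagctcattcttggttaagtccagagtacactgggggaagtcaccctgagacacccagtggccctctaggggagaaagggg
St18, chr1:6715381-6715580, plus strand: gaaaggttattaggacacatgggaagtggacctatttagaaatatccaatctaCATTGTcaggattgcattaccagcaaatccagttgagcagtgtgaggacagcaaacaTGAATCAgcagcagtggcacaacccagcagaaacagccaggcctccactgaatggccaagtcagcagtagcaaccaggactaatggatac
Slc2a1, chr4:118780101-118780320, plus strand: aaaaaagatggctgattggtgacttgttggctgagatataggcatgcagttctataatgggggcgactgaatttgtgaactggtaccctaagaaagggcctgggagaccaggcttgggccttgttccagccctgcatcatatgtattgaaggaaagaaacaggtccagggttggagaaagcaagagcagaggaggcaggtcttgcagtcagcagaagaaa

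A match to TGANTCA, the pattern searched for AP-1, stood in the St18 region and in the Ccr9 region, in both as TGAATCA. That pattern, with any base in the middle, was in 6.04% of the 1076 NeuN-positive regions of 200 bp and in 6.36% of the 755 NeuN-negative ones. The NFI motif was matched in the Aldh1l1 region, against 15.9% of the 88 regions of 260 bp in that table, and in the Rac2 region, against 11.7% of the NeuN-negative regions of 200 bp. A SOX match lay in the St18 region, as in 9.76% of NeuN-positive regions of that length. Among regions not printed, that of Pecam1 at 30 min held an NFI motif, found in 12.8% of the 313 regions of 200 bp in its table, and that of Gpc5 at 2 hr an ETS match, found in 1.38% of 508. None of the 20 H3.3 regions held a CRE match, and the printed regions of Rac2, P2ry12 and Ccr9 held no ETS match. The ETS motif is in 1.32% of NeuN-negative regions of 200 bp. Among the NeuN-positive member regions of 200 bp, CG dinucleotides ran from 0 at St18 to 5 at Tie1. The median was 2 over all 1076 NeuN-positive regions of that length.

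In NeuN-positive nuclei, 9 marker genes had a region and all 9 were higher in enriched than in normally housed mice. They were the astrocyte genes Aldh1l1 and Gpc5, the oligodendrocyte lineage genes St18, Lhfpl3, Mbp and Myrf, and the vascular genes Tie1, Cdh5 and Ebf1. No microglial gene of the list had one. In these sorted nuclei fewer or more cells of a type and less or more H3.3 per cell cannot be told apart. Differences ran between 3.19-fold at Mbp and 5.71-fold at Ebf1, sizes that rest on 2 values a group. Without the first normally housed value the fold was below 3 at Lhfpl3 (2.48), Aldh1l1 (2.57), Myrf (2.64) and Tie1 (2.99). At the other genes the fold was then 3.69 at Ebf1, 4.38 at Gpc5, 4.46 at St18, 5.1 at Mbp and 5.37 at Cdh5. Without the second it was 7.89 at Aldh1l1, 12.5 at Ebf1, 6.13 at Tie1, 5.08 at Lhfpl3, 5.41 at Myrf and 2.32 at Mbp. All 9 passed an authors' adjusted p of 0.05, as did 97.8% of all 1642 listed regions, and a gain was listed for 71.8% of those regions (70.1% when an adjusted p of 0.05 or less is also required). The median absolute log2 fold change was 1.96 over the 9 regions and 1.91 over all.

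Aldh1l1 encodes a folate enzyme used to mark astrocytes. Its region, in an intron 22489 bp from the gene start, had 23.6 and 24.0 normalised reads in enriched libraries, against 3.01 and 9.25 in normally housed ones. Both enriched values were high and close together, while the lower group differed within itself. The mean was 23.8 ± 0.297 in enriched and 6.13 ± 4.41 in normally housed libraries (SD, n = 2 each), and the authors' deposited table gave a log2 fold change of 1.96 and an adjusted p of 0.0309.

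Gpc5, a cell surface heparan sulfate proteoglycan of astrocytes and a gene of 1432 kb, had an intronic region (chr14:115914581-115914800 in mm9) with 18.1 and 18.0 normalised reads in enriched libraries and 3.01 and 4.11 in normally housed ones. The log2 fold change in the authors' deposited table was 2.34, with an adjusted p of 0.026.

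The 4 oligodendrocyte lineage regions were all intronic. St18, a zinc finger factor of this lineage, had 20.4 and 16.3 normalised reads in enriched libraries and 6.02 and 4.11 in normally housed ones. Lhfpl3, enriched in oligodendrocyte precursors, had a region at chr5:22382141-22382340 with 22.0 and 24.0 in enriched libraries against 4.52 and 9.25 in normally housed ones. Mbp encodes myelin basic protein. It had 18.8 and 23.1 in enriched libraries against 9.03 and 4.11 in normally housed ones. Myrf, the transcription factor that switches on myelin genes, had the longest region, 300 bp, with 27.5 and 37.7 in enriched libraries against 6.02 and 12.3 in normally housed ones. In the authors' deposited table the log2 fold changes of these 4 genes lay between 1.67 at Mbp and 1.86 at St18, with adjusted p between 0.0379 and 0.0401.

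Among the vascular genes, Tie1 (chr4:118158821-118159020) and Cdh5 (chr8:106636721-106636940) had regions that overlapped coding exons and Ebf1 (chr11:44733881-44734080) an intronic one. Tie1, a receptor kinase of endothelium, had 18.1 and 18.8 normalised reads in enriched libraries and 3.01 and 6.16 in normally housed ones. Cdh5, the VE-cadherin of endothelial junctions, had 22.8 and 21.4 in enriched libraries and 6.02 and 4.11 in normally housed ones, and its adjusted p in the authors' deposited table, 0.0209, was the smallest of the 9. Ebf1, a transcription factor of B cells that also marks mural cells of brain vessels, averaged 18.9 ± 3.49 in enriched and 3.32 ± 2.57 in normally housed libraries (SD, n = 2 each). That is 21 and 25 reads in the enriched libraries against 1 and 5 in the normally housed ones. Enriched values exceeded normally housed ones at all 3 vascular genes, and the ratio at Ebf1 leaned on the library with 1 read. Without it the fold was 3.69 at Ebf1, against 5.37 at Cdh5.

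**Figure D1:**
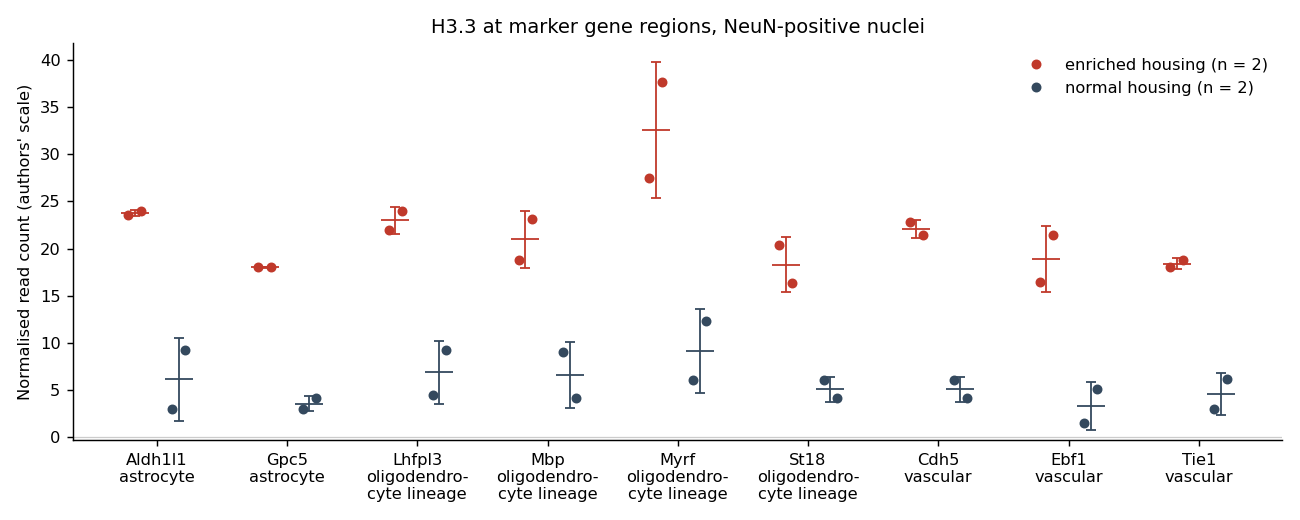
Normalised read count per library (vertical axis, authors' scale) at the 9 marker gene regions of NeuN-positive nuclei, enriched left and normally housed right of each gene. Points are libraries, horizontal marks means and bars SD (n = 2 each). Every enriched point lies above every normally housed point of its gene, with means between 18.0 and 32.6 in enriched and between 3.32 and 9.18 in normally housed libraries.

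The 9 regions rested on 44 to 79 reads in the 2 enriched libraries together and on 6 to 16 in the normally housed ones. Those ranges lie inside the ones of all gained regions, 39 to 109 and 4 to 21. In enriched libraries 1 read was worth 0.785 and 0.856, in normally housed ones 1.51 and 1.03, so the enriched libraries were the deeper ones. With 2 libraries a group an exact permutation test cannot go below p = 0.333, which all 9 regions gave. Against input, the authors' deposited ratios of the 9 regions were 1.45 to 2.19 in enriched and 0.37 to 0.8 in normally housed nuclei. All lower values were thus below input level. The input level implied by these ratios was itself higher in enriched mice at all of these genes but Gpc5 and Lhfpl3. It was 10.6 in enriched against 5.53 in normally housed mice at Ebf1, 11.8 against 6.34 at Cdh5 and 14.7 against 13.9 at Aldh1l1. At Gpc5 it was lower in enriched mice, 8.23 against 9.62, as at Lhfpl3, 12 against 12.5. The part of these input differences in the result was not tested. The 9 regions had a median GC content of 53.5%, against 53.0% in all gained and 46.0% in all lost regions of this table.

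No region lay at a promoter as the file labels them, and none lay within 3 kb of the gene start in the annotation used here. Along the genes they stood between 9.51% of the length from the start (Mbp) and 77.6% (Ebf1). The table also listed a gained region 3432 bp beyond the end of Mbp and another 1488 bp beyond the end of Ebf1, neither assigned to a gene. The one beyond Mbp averaged 22.6 ± 1.97 normalised reads in enriched and 6.13 ± 4.41 in normally housed libraries, that beyond Ebf1 20.1 ± 0.509 in enriched and 4.58 ± 2.23 in normally housed ones (SD, n = 2 each). The 9 genes were 19.1% of the 47 markers, while 3.46% of 22380 protein-coding genes were listed in this table. The markers were chosen with earlier results of these data known, so the 2 shares make no test. Long genes offer more places for a region. Members with an H3.3 region had a median length of 96.4 kb, members without one 18.2 kb and all protein-coding genes 15.4 kb.

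In NeuN-negative nuclei, 6 markers had a region, 3 gained and 3 lost, and 4 of the 6 were microglial. These are 12.8% of the 47 markers and 40% of the 10 microglial ones, against 2.41% of 22380 protein-coding genes in this table. Since the list was chosen with earlier results of these data known, these shares do not test it. Regions of the microglial genes Rac2, P2ry12 and Ccr9 had less H3.3 in enriched mice, while those of C1qa and the astrocyte genes Plcd4 and Gpc5 had more. No oligodendrocyte lineage or vascular gene of the list had a region. All 6 passed an authors' adjusted p of 0.05, as did 99.8% of the 1196 regions in this table, and 70.7% of all regions were gained (70.6% with an adjusted p of 0.05 or less). The median absolute log2 fold change, over regions with a finite one, was 3.22 for the members and 2.94 for all.

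Rac2, a small GTPase of blood and immune cells, had no read in any of the 3 enriched libraries, against 6.63, 6.08 and 9.04 normalised reads (7, 9 and 10 reads) in normally housed ones. All reads of this region lay in the normally housed libraries. With a floor of 3 reads over the enriched group, the normally housed mean of 7.25 ± 1.57 (SD, n = 3) was at least 5-fold above the enriched one, so that H3.3 in this region was at least 5-fold lower in enriched mice. That bound was 3.04 without the first enriched value and 2.54 without the third, since the floor then covers fewer libraries. The authors' deposited table gave an adjusted p of 0.00249.

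P2ry12 is the ADP receptor by which microglia sense injury, and it marks resting microglia. It had 1.16, 0 and 1.08 normalised reads in enriched libraries (1, 0 and 2 reads) and 7.58, 6.08 and 7.23 in normally housed ones (8, 9 and 8 reads). The mean was 0.747 ± 0.648 in enriched and 6.96 ± 0.785 in normally housed libraries (SD, n = 3 each), a log2 fold change of -3.22 and an adjusted p of 0.00776 in the authors' deposited table. Without the second enriched value, which was 0, the normally housed mean was 6.22-fold above the enriched one, against 9.33-fold with it. The implied input level moved the other way, 2.59 in enriched against 0.881 in normally housed nuclei, and the part of that in the result was not tested. The region lay in an intron 9192 bp from the start of P2ry12, which is itself inside Med12l, so that the signal cannot be given to one of these genes.

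Ccr9, a chemokine receptor best known from T cells, had no read in enriched libraries and 5.69, 6.08 and 7.23 normalised reads in normally housed ones (6, 9 and 8 reads). H3.3 there was at least 4.37-fold lower in enriched mice on the same floor (2.65 without the first and 2.22 without the third enriched value), with an adjusted p of 0.00327 in the authors' deposited table. As a list member it stands with the microglial genes, although it is not a defining marker of them. The file places the region just before its start of Ccr9. In the annotation used here it falls in an intron of a longer form of the gene.

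C1qa encodes a chain of complement C1q, which brain microglia make. The region assigned to it had 5.82, 7.93 and 5.42 normalised reads in enriched libraries (5, 3 and 10 reads) and 0, 0.68 and 0.9 in normally housed ones (0, 1 and 1 reads). The mean was 6.39 ± 1.35 in enriched and 0.527 ± 0.469 in normally housed libraries (SD, n = 3 each), a log2 fold change of 3.60 and an adjusted p of 0.00772 in the authors' deposited table. The fold was 12.1, with 8.09 without the first normally housed value and 18.8 without the third. The file labels it a promoter of C1qa, but C1qa is on the minus strand and the distances in this table were measured from the lower coordinate of minus-strand genes, in 306 of 306 such regions. The region lies past the 3′ end of C1qa, and its place relative to the neighbouring genes is not reported here. The same fault touches Rac2, whose region the file also calls a promoter. It is intronic, 2501 bp from the 3′ end and 11112 bp from the start.

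The astrocyte genes with an assigned region, Plcd4 and Gpc5, were both higher in enriched mice. A region 2384 bp past the end of the astrocyte gene Aldh1l1, which the file gives to Slc41a3, was lower, with 0.723 ± 1.25 normalised reads in enriched and 7.88 ± 1.35 in normally housed libraries (SD, n = 3 each). Its log2 fold change was -3.45 with an adjusted p of 0.00769 in the authors' deposited table. Plcd4, a phospholipase C, had 5.82, 13.2 and 8.13 normalised reads in enriched libraries (5, 5 and 15 reads) and 0.95, 2.03 and 0.9 in normally housed ones (1, 3 and 1 reads), over a coding exon at chr1:74600901-74601100. Its log2 fold change in the authors' deposited table was 2.81, with an adjusted p of 0.00556. The implied input level moved the other way, 1.39 in enriched against 4.45 in normally housed nuclei, and the part of that in the result was not tested. Gpc5 had 5.82, 5.28 and 4.88 normalised reads in enriched libraries (5, 2 and 9 reads) and none in normally housed ones at chr14:116141541-116141740, at least 6.33-fold higher in enriched mice (3.83 without the second normally housed value), with an adjusted p of 0.00361 in the authors' deposited table.

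**Figure D2:**
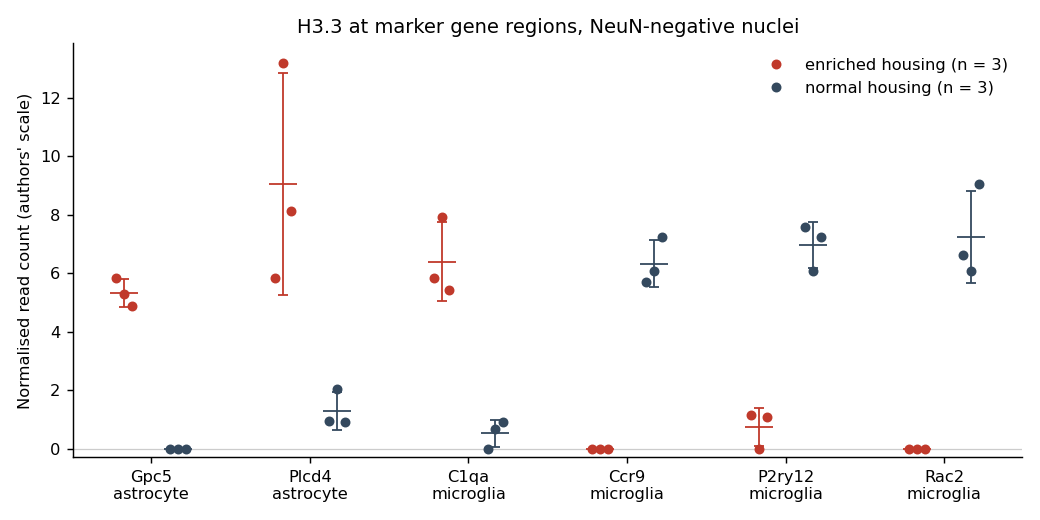
Normalised read count per library (vertical axis, authors' scale) at the 6 marker gene regions of NeuN-negative nuclei, enriched left and normally housed right of each gene. Points are libraries, horizontal marks means and bars SD (n = 3 each). Gpc5, Plcd4 and C1qa are higher in enriched libraries, while Ccr9, P2ry12 and Rac2 are lower, with means of 0, 0.747 and 0 in enriched libraries.

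These calls rest on few reads. The higher group of a gained member held 16 to 25 reads over 3 libraries and that of a lost member 23 to 26, close to the medians of 21 and 25 over all gained and lost regions of the table. A single enriched library gave between 2 and 15 reads at a gained member. Because 1 read was worth 2.64 in the second enriched library and 0.542 in the third, its value of 5.28 at Gpc5 stands for 2 reads. With 3 libraries a group an exact permutation test cannot go below p = 0.1, the value at all 6 regions.

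Set side by side, the 2 kinds of nuclei listed different markers. Only Gpc5 was in both, 1 of 9 members (11.1%) in NeuN-positive and 1 of 6 (16.7%) in NeuN-negative nuclei. Over all genes, 71 were shared, 8.45% of the 840 in NeuN-positive and 12.2% of the 584 in NeuN-negative nuclei. Gpc5 was higher in enriched mice in both, at regions 227 kb apart, and no member region of one table overlapped one of the other by 1 bp or more. Microglial genes gave 0 of the 9 NeuN-positive regions and 4 of the 6 NeuN-negative ones, while oligodendrocyte lineage and vascular genes gave 7 of 9 and 0 of 6. The difference between the tables was not tested, since they were normalised separately and list changes only.

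Further markers of the same cells came from a list of 12 per class. Like the neuronal list, it was chosen with earlier results of these data known. In NeuN-positive nuclei 6 of the 48 had a region, 12.5% against 3.46% of all protein-coding genes, and in NeuN-negative nuclei 2 had one, 4.17% against 2.41%. Nfia, Fa2h, Tcf7l2, Spi1 and Vwf were gained and Slc6a11 was lost, each with an adjusted p of 0.05 or less in the authors' deposited table. Spi1, which encodes PU.1, the factor that directs myeloid cells, averaged 20.1 ± 1.82 normalised reads in enriched and 5.82 ± 2.42 in normally housed libraries (SD, n = 2 each) in a region the file places at its promoter. Slc6a11, the GABA transporter of astrocytes, averaged 4.53 ± 0.863 in enriched and 20.8 ± 4.69 in normally housed libraries (SD, n = 2 each). Nfia, a transcription factor of astrocyte development, was gained in 2 regions in NeuN-positive nuclei and lost in 2 in NeuN-negative ones, where Qk was the other gene listed, as gained. Of 24 neuronal markers, 0 had a region in NeuN-positive nuclei, where 3.46% of all protein-coding genes did. In NeuN-negative nuclei 3 had one (12.5% against 2.41%), namely Celf4, Stmn2 and Syn3, all 4 regions gained in a table with 70.7% gained. Stmn2, a neuronal tubulin-binding protein, averaged 7.97 ± 4.56 normalised reads in enriched and 0.75 ± 0.687 in normally housed NeuN-negative libraries (SD, n = 3 each). The part of neuronal nuclei in that sort was not tested.

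In cultured neurons, the H3.3 tables listed Pecam1 after 30 min of KCl, Gpc5, Slc4a4 and Slc2a1 after 2 hr, and Gpc5 after 5 hr. These are 2.13%, 6.38% and 2.13% of the markers at the 3 times in turn, against 1.42%, 1.8% and 1.97% of all protein-coding genes. H3.1/2 at 5 hr listed none of the 47, in a table of 7 regions. The 4 regions at 30 min and 2 hr passed an authors' adjusted p of 0.05, as did 98.5% of 457 regions at 30 min and 99.6% of 689 at 2 hr. The region at 5 hr did not, and only 3% of 667 did there.

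Pecam1, the adhesion molecule CD31 of endothelium, was gained after 30 min, in a table where 20.1% of regions were gained (19.9% with an adjusted p of 0.05 or less). Over a coding exon at chr11:106546221-106546420 it had 11.2, 11.6 and 10.3 normalised reads with KCl and 1.27, 4.16 and 2.93 in controls. The KCl values were close together and all above the controls. The mean was 11.0 ± 0.661 with KCl and 2.79 ± 1.45 in controls (SD, n = 3 each), with a log2 fold change of 1.98 and an adjusted p of 0.0303 in the authors' deposited table. The controls at this time have 4 libraries in the labels, of which one repeats the first, and 3 values in the table.

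After 2 hr, Slc2a1, the glucose transporter GLUT1 of the blood-brain barrier, was gained where 14.4% of regions were gained (14.2% with an adjusted p of 0.05 or less). Its region, 996 bp upstream of the gene, had 13.8, 12.1 and 13.6 normalised reads with KCl and 2.04, 4.17 and 2.45 in controls. The log2 fold change was 2.19 with an adjusted p of 0.0135 in the authors' deposited table, and this was the only H3.3 region of the 47 genes that lay within 3 kb upstream of its own gene's annotated start.

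The astrocyte genes Slc4a4 and Gpc5 were lost at that time. Slc4a4, a sodium bicarbonate cotransporter, had an intronic region at chr5:89484961-89485240 with 7.35, 5.3 and 2.72 normalised reads with KCl and 19.4, 14.2 and 18.4 in controls, a log2 fold change of -1.76 and an adjusted p of 0.0172 in the authors' deposited table. Gpc5, in an intron at chr14:116889141-116889340, had 5.51, 3.79 and 0 with KCl and 11.2, 13.3 and 12.3 in controls, a log2 fold change of -1.98 and an adjusted p of 0.0228 in the authors' deposited table. Both sizes leaned on the third KCl value, which was the lowest. Without it KCl and control were less than 3-fold apart, the limit of the authors' list, at Gpc5 (a difference of means of -7.62) and at Slc4a4 (-11). Without the first KCl value the control mean at Gpc5 was 6.47-fold above the KCl mean, against 3.96-fold with it. At 5 hr another intronic Gpc5 region, chr14:115505781-115505980 and 1383 kb away, had 10.8, 13.2 and 12.9 normalised reads with KCl and 2.36, 4.1 and 2.91 in controls. Its adjusted p was 0.103 in the authors' deposited table. Gains made up 44.2% of the 5 hr table, 1.65% with an adjusted p of 0.05 or less.

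**Figure D3:**
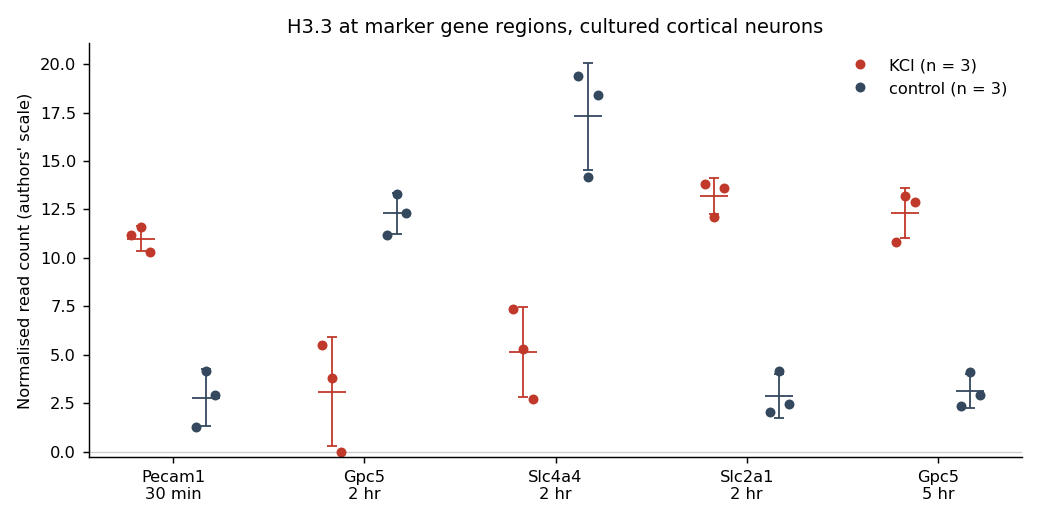
Normalised read count per library (vertical axis, authors' scale) at the 5 marker gene regions listed in H3.3 tables of cultured neurons at 30 min, 2 hr and 5 hr, KCl left and control right of each gene. Points are libraries, horizontal marks means and bars SD (n = 3 each). KCl lies above control at Pecam1, Slc2a1 and Gpc5 at 5 hr, and below it at Slc4a4 and Gpc5 at 2 hr.

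The further lists gave Notch3 (lost at 30 min) and Nfia (lost at 2 hr) in these cultures. Neuronal markers gave 4 of 24 genes at 30 min (Celf5, Reln, Snap25 and Syt1), 16.7% against 1.42% of all protein-coding genes. All 4 were lost, in a table where 79.9% of regions were lost. They gave 1 at 2 hr (Reln, lost) and 2 at 5 hr (Camk2a and Syn3, gained, neither with an adjusted p of 0.05 or less).

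CATCH-IT at 5 hr listed 101 regions at 30 of the 47 genes (63.8%, against 39.1% of all protein-coding genes), 63 gained and 38 lost after KCl. That is 62.4% gained, against 57.3% of all 53020 regions, and every region of this table had an authors' adjusted p of 0.05 or less (100%). By class, 27 of 46 astrocyte regions, 15 of 23 oligodendrocyte lineage regions, 3 of 6 microglial regions and 18 of 26 vascular regions were gained. Of the 101, 78 were intronic, 15 overlapped exons, 3 lay upstream and 5 beyond the annotated end of the gene. Inside the spans of the marker genes lay 104 CATCH-IT regions, 93 of them assigned to the marker and 11 to another gene or to none. That is 21.8 regions per Mb, against 23.4 per Mb over all protein-coding genes counted the same way. Of the further markers 26 of 48 had a CATCH-IT region (54.2%), and of the neuronal markers 14 of 24 (58.3%). The neuronal regions numbered 66, with 41 gained and 25 lost.

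Gpc5 had the most regions, 24, of which 16 were gained and 8 lost. Its gene is long, and its density of 16.8 regions per Mb was below that of all protein-coding genes. The smallest adjusted p was shared by 4 of its regions, all gained, with lower bounds between 7.61-fold and 14.7-fold. The one with the highest level had 24.1, 2.13 and 16.3 normalised reads with KCl (18, 4 and 6 reads) and 0 in all 3 controls, at least 14.7-fold higher with KCl on a floor of 3 reads over the control group. That bound was 9.59 without the first KCl value and 7.35 without the first control value, in which 1 read was worth least. The adjusted p of the 4 in the authors' deposited table was 4.15e-07. The 24 regions ran from 37.6 to 1354 kb after the gene start. The H3.3 regions at 423 and 650 kb in sorted nuclei and at 1398 and 14.4 kb in cultures overlapped none of them.

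**Figure D4:**
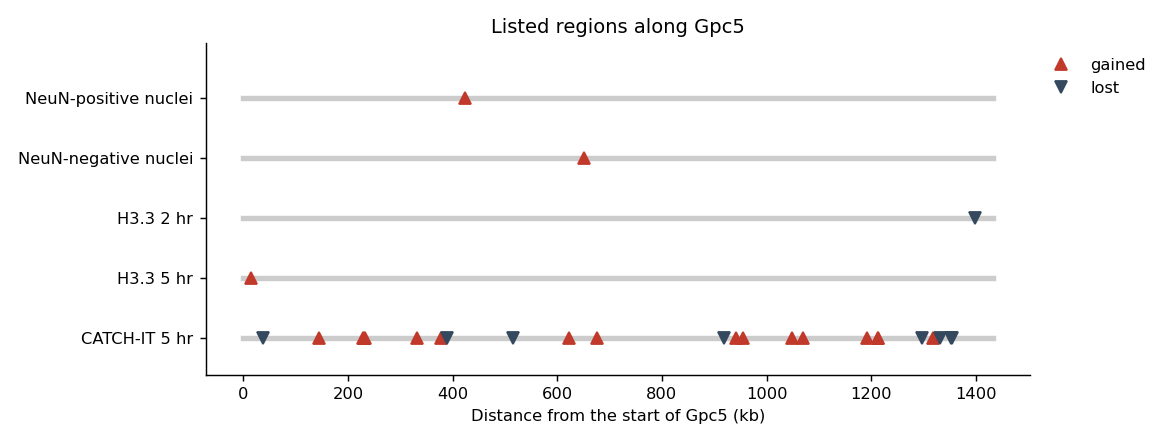
Positions of the listed regions along Gpc5 (horizontal axis, kb from the gene start), one line per table. Triangles pointing up are gained and those pointing down lost. Gained and lost CATCH-IT regions lie along the whole gene, and the 4 H3.3 regions lie at 423, 650, 1398 and 14.4 kb.

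Other astrocyte genes had regions in both directions. Slc4a4 had 3 gained and 3 lost, Slc1a3, the glutamate transporter GLAST, 2 and 2, and Slc1a2, the glutamate transporter GLT-1, 3 gained and 1 lost. The leading Slc1a2 region had 12.0, 2.13 and 10.9 normalised reads with KCl and none in controls. The leading Slc1a3 region had no reads with KCl and 3.16, 12.5 and 14.2 in controls, at least 6.5-fold lower with KCl (4.08 without the first and 3.27 without the second KCl value). That of Slc4a4 had 6.68, 6.92 and 2.72 with KCl and none in controls. Gfap, the intermediate filament of astrocytes, had 2 regions, both lost.

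In the oligodendrocyte lineage, Lhfpl3 had 9 regions, 5 gained and 4 lost, and Cspg4 (the proteoglycan NG2) and Mbp had 1 of each. Of the Lhfpl3 regions, 5 lay beyond the end of the gene in the annotation used here. Ugt8a, which makes the myelin lipid galactosylceramide, was the only marker with at least 3 regions in a single direction, all 3 gained. Its leading region had 14.7, 6.39 and 57.1 normalised reads with KCl (11, 12 and 21 reads) and none in controls, at least 27.1-fold higher with KCl. The bound was 11 without the third KCl value and 13.5 without the first control value. The 3 KCl values spread widely there, 26.1 ± 27.2 (SD, n = 3). The leading region of Lhfpl3 had 9.35, 6.92 and 16.3 with KCl, that of Cspg4 2.67, 6.39 and 2.72, and that of Mbp 8.02, 3.2 and 21.7, each with none in controls.

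Among microglial genes, Ptprc, the leukocyte antigen CD45, had 2 gained and 1 lost region, C1qa 1 gained, and Csf1r and Itgam 1 lost each. Csf1r is the receptor on which microglia depend and Itgam encodes CD11b. The leading Ptprc region had 10.7, 3.2 and 16.3 normalised reads with KCl and none in controls. C1qa had 10.7, 6.92 and 2.72 with KCl and none in controls, in a region that lies upstream of its start, 403 bp away. Csf1r had none with KCl and 1.89, 8.32 and 14.2 in controls. Itgam had none with KCl and 0.63, 16.6 and 1.18 in controls, where 12 of the 15 reads came from 1 library. Without that library the control mean at Itgam was under the floor of 3 reads. The listed regions of Csf1r and Itgam thus had reads in control libraries alone, and those of C1qa and the leading one of Ptprc in KCl libraries alone. Signal elsewhere in these genes is not given.

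Vascular regions were those of Ebf1 (6 gained, 5 lost), Flt1 (4 and 2), Kdr (3 and 1) and Pecam1 (2 gained), with 1 gained each at Tek, Tie1 and Pdgfrb. Flt1 and Kdr encode receptors for VEGF. The leading Ebf1 region had 18.7, 3.2 and 5.44 normalised reads with KCl, that of Flt1 8.02, 7.46 and 5.44, that of Kdr 8.02, 3.2 and 21.7 and that of Pecam1 1.34, 7.46 and 2.72, each with none in controls. The lost Kdr region and its leading gained one shared bases, so that one stretch of the gene carried calls in both directions. In Pecam1, 14 of the 16 reads came from the second KCl value.

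**Figure D5:**
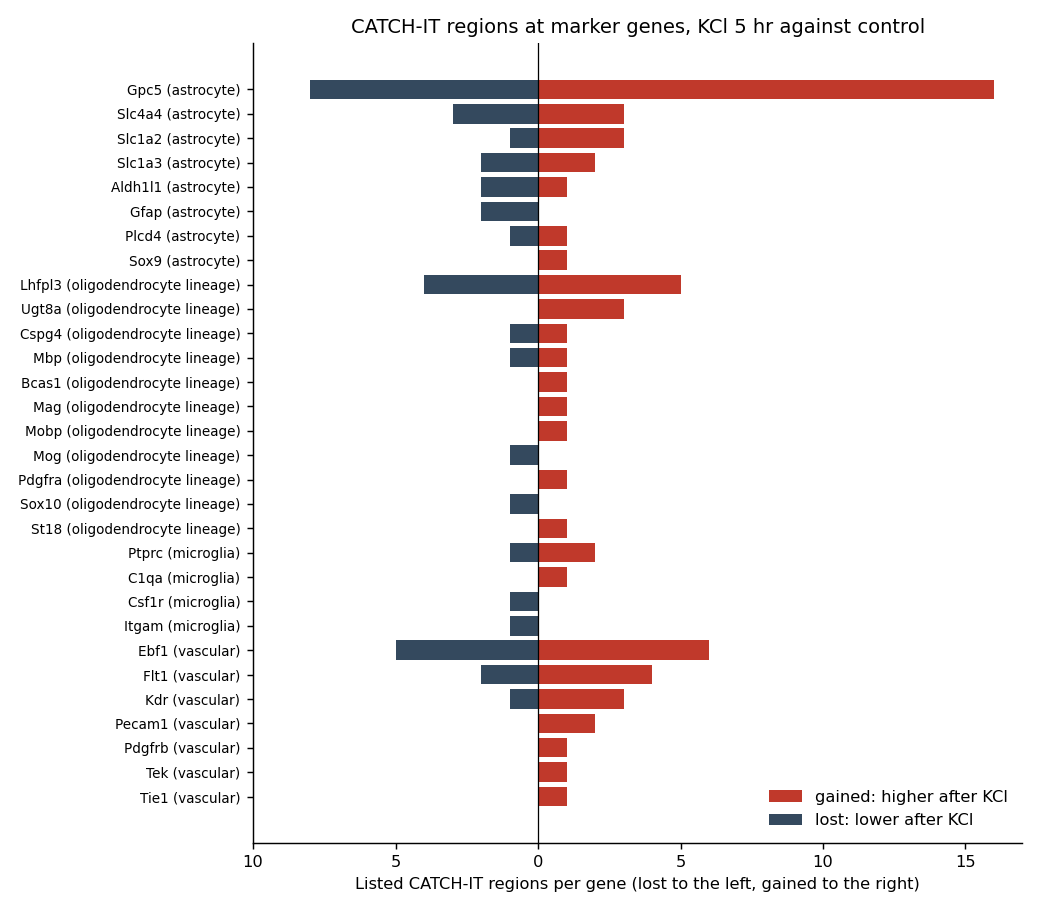
Number of listed CATCH-IT regions per marker gene (horizontal axis), gained to the right and lost to the left of 0, ordered by cell class and number. Gpc5 has 16 gained and 8 lost regions, and Ugt8a 3 gained and 0 lost.

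Nearly all CATCH-IT regions were present in one condition and at 0 in the other. Controls were at 0 in all 3 libraries for 61 of 63 gained member regions, and KCl libraries for 38 of 38 lost ones. Together these are 98% of the member regions, against 97.7% of all. The higher group held a median of 18 reads over its 3 libraries. A single library often supplied more reads than the other two together, in 48 of 63 gained and 24 of 38 lost member regions (76.2% and 63.2%, against 71.8% and 61.7% over all regions). The third control value was exactly 12 reads in 31 of 38 lost member regions (81.6%, against 67.6% of all lost ones). The second KCl library held the most reads in 42 of 63 gained member regions, against 15772 of all 30359 gained ones. On the normalised scale the second KCl value was the highest in 27 of the 63 (42.9%, against 37.1% of all gained regions). The part of single libraries in these regions was not tested. No H3.3 region of a marker gene overlapped a CATCH-IT region of any gene. The nearest was 1361 bp away, at Plcd4.

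Of the 47 genes, 11 had no region assigned to them in any table. They were the astrocyte genes Aqp4, Gja1, Aldoc and S100b, the oligodendrocyte lineage genes Cnp, Olig1 and Olig2, the microglial genes C1qb, Cx3cr1 and Tmem119, and the vascular gene Cldn5. The longest of them is Cx3cr1 with 19.6 kb, and no statement on their H3.3 can be drawn from the tables.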

How the data were processed

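H3.3, H3.1/2 and CATCH-IT libraries of mouse hippocampal nuclei and cultured cortical neurons were compared in 7 tables of differential regions deposited by the authors. The submitters' processing notes name bedtools 2.16.2, Bowtie 0.12.7 and build mm9; which program called the regions is not given in those sources. Per the file headers, each region has normalised read counts per library, packed without library names, their group means (a coverage signal), the ratio of each mean to input, a log2 fold change and a p-value with its adjusted form, all by the authors. Their adjusted p was used as deposited, since only listed regions are given and no fit across all windows can be made. Normalisation was within each table, so levels were not compared across tables. Depth is known only through the value of 1 read, found as the step of the low values; within 0.1 of a step, 100% of values were whole reads. No step was sought for H3.1/2.

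Genes were matched by symbol or Ensembl ID to GENCODE vM1 on mm9, where Myrf is named Gm98, and exon, intron and strand-aware distances come from it. A fold against a group at 0 used a floor of 3 reads over that group and covers counting error only. Means are given with SD, exact permutation tests are two-sided, and Python 3.11.15 with pandas 2.3.3 was used. The step search was tested on simulated data. Named genes were all members in H3.3 tables and, in CATCH-IT, the 4 with most regions per class and those with at least 3 regions in one direction, described by the region with the smallest adjusted p; Gfap, Tek, Tie1 and Pdgfrb and the further and neuronal markers were named by their counts. Members and lists were chosen with earlier results of these data known. Nothing beyond the protocol's words says that libraries came from separate animals or cultures, so p-values speak of these libraries only. What spread the authors' adjusted p measures is not known. In CATCH-IT, 2 gained Gpc5 regions had 7.32 ± 9.92 and 7.61 ± 0.806 normalised reads with KCl (SD, n = 3 each). Both had an authors' adjusted p of 4.15e-07. The number of per-sample columns not used was 0. HA and embryonic samples were not analysed here. The sequence and position of the C1qa region in NeuN-negative nuclei are not reported here.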

Additional observations from a re-analysis of the deposited data

Results flagged for a closer look

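Gpc5 was listed with opposite signs at 2 culture times, a log2 fold change of -1.98 at 2 hr and of 1.98 at 5 hr. The 5 hr region did not pass, with an adjusted p of 0.103 in the authors' deposited table. In both, every KCl library lay on the same side of its controls, as in every listed H3.3 region. The regions are different ones, 1383 kb apart, and the difference between the times was not tested.

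Nfia, from the further astrocyte list, was gained in both of its regions in NeuN-positive nuclei, with log2 fold changes of 1.76 and 2.12 for enriched over normally housed mice. Both of its regions in NeuN-negative nuclei were lost, with -3.73 and -5.13. These too are different regions in tables normalised separately, and the difference was not tested.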

How the results depend on the processing

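Among 186 recomputed counts of member regions, 171 stayed within 1.5 times the reported one. Gained and lost counts with a value left out are among them and could not change, since groups overlapped in no member region. Counts of regions at least 3-fold apart allowed for rounding, so a fold of 2.99 was counted. Without the first normally housed value, 6 of 9 NeuN-positive members were counted in this way, with Tie1 at 2.99. At an adjusted p of 0.01, called members fell to 0 in NeuN-positive nuclei, 0 at 30 min and 0 at 2 hr. At an absolute log2 fold change of 2 or more, gained members numbered 4 in NeuN-positive nuclei, 0 at 30 min and 0 at 5 hr, and lost ones 0 at 2 hr. Shares of all regions at these stricter limits were not computed, so the counts cannot be read as particular to the markers. No 5 hr member passed 0.05, so its gained count was 0 there. In CATCH-IT, direction from ratios to input left 9 gained and 0 lost, since most ratios were infinite. Requiring no library at 0 left 1 gained and 0 lost. With 1 count per gene, by its region with the smallest adjusted p, 23 were gained and 7 lost. The smallest authors' adjusted p was 4.15e-07 in gained and 9.91e-07 in lost member regions, so this choice favours gained ones. The same count over all genes was not made. Leaving out each value in turn gave 1 to 3 members at least 3-fold apart at 2 hr. All 198 named differences kept their sign, which was fixed in advance because the groups did not overlap. Two-sided exact permutation gave 0.1 or 0.333 at every named region, the smallest value possible. Placing regions by strand in the annotation removed C1qa from the 3 gained members of NeuN-negative nuclei; this setting, the 3-fold count and the count of libraries with reads were chosen after seeing the data. No paired analysis was possible because the packed values carry no library names or replicate numbers. Depth limits these results to 16 to 79 reads in the higher group of an H3.3 region in sorted nuclei.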
